A study of Rattus norvegicus with 32 samples.

Results

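The genes described here encode scaffold proteins of the postsynaptic density: Dlg1, Dlg2, Dlg3, Dlg4, Dlgap4, Shank1, Shank3, Homer1, Ddn and Baiap2. They were chosen by name from textbook membership of that structure, with earlier results of these data known. By symbol, 10 of 10 were found among 17216 genes counted. Their mRNA was measured in hippocampal neurons of wildtype Sprague Dawley rats, taken at embryonic day 18 and grown in culture for 15 days. The soma of each of 16 single neurons was drawn into a micropipette and its dendrites into another, which gave 16 soma libraries and 16 dendrite libraries, compared as pairs of the same cell. Polyadenylated RNA was copied by in vitro transcription in 3 rounds of aRNA amplification before sequencing. The cells were taken from more than 1 culture and on more than 1 day, and the labels do not tie a neuron to a culture, so the spread between neurons includes that between cultures. The neurons carry the numbers of their labels, between 7 and 28. No cell was treated, and the only contrast is dendrites against soma.

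The postsynaptic density is a protein layer under the membrane of excitatory synapses. In it, PSD-95 and its relatives bind receptors and channels through PDZ domains, SAPAP proteins join them to the SHANK proteins, and HOMER proteins join SHANK to metabotropic glutamate receptors and to calcium stores. The mRNAs of some of these proteins are known to travel into dendrites, where they can be translated near synapses.

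Libraries differed widely in depth. Soma libraries held between 878125 and 24721811 gene counts, and dendrite libraries between 229149 and 24439768. Levels are given as counts per 1000000 gene counts (CPM). A count of 0 allows a level of up to 3 counts, which is 0.121 to 3.42 CPM over the soma libraries and 0.123 to 13.1 CPM over the dendrite libraries, and these limits cover counting error only, since amplified reads without molecular identifiers are not independent molecules. The labels call the cells pyramidal, and all 32 libraries held at least 10 counts of Neurod6, a transcription factor of excitatory forebrain cells. Gad1, which makes the inhibitory transmitter GABA, had 10 or more counts in 7 soma and 11 dendrite libraries, with 11161 CPM in the soma of neuron 8. Summed over 13 markers of inhibitory neurons, somata held 0 to 16655 CPM (median 156) and dendrites 10.9 to 3304 CPM (median 360). Summed over 12 astrocyte genes, somata held 0.648 to 672 CPM (median 211) and dendrites 40.3 to 3042 CPM (median 415). Vessel and fibroblast genes (9 of 9 found) summed to at most 600 CPM in soma and 795 CPM in dendrites, and 10 oligodendrocyte genes to at most 90.8 and 147 CPM. Of 8 microglia markers, 7 were at 0 in all soma libraries and 5 in all dendrite libraries. Levels are shares of the gene counts of a library, so the absolute amount of an mRNA per soma or per dendrite cannot be read from them. The part played by RNA of other cells in the values below was not tested.

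Pairs rest on the numbers in the labels. Across genes, centred soma profiles were most like the dendrites of their own number in 7 of 16 neurons. The somata of neurons 11, 14, 18, 21, 22 and 28 were most like the dendrites of another number, and were kept as labelled. For the soma of neuron 11 the Spearman correlation was 0.113 with the dendrites of neuron 14 and -0.045 with its own. The soma of neuron 7 was most like the dendrites of neuron 9 (Spearman 0.24, against 0.05 with its own), and the soma of neuron 9 most like the dendrites of neuron 7 (0.14, against 0.003). The soma of neuron 8 was closer to the dendrites of neuron 9 (0.21) than to its own (0.17), although 0.17 was the highest value of any soma with its own dendrites. Whether the numbers of these neurons were exchanged was not tested. Without these 3 neurons the log2 fold changes were 1.18 ± 0.71 for Dlg4, -1.60 ± 1.57 for Dlgap4, 1.51 ± 1.88 for Shank3, -1.64 ± 1.93 for Homer1, 0.83 ± 1.41 for Ddn, 1.34 ± 2.76 for Baiap2 and 0.32 ± 1.495 for Dlg3 (SE; edgeR adjusted p 0.999 for each), and the sign differed from that in all 16 neurons for Dlg3 only. Shank1 then failed the filter on low counts.

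The scaffold genes differed in how regularly they were caught. Dlg4 had 10 or more counts in 32 of 32 libraries, Ddn in 29, Shank3 in 28 and Dlgap4 in 27. Homer1 and Baiap2 each had them in 21, Dlg3 in 16, Shank1 in 13, Dlg2 in 10 and Dlg1 in 2. For comparison, 550 of 17216 genes (3.19%) reached 10 counts in all 32 libraries, and 2429 genes (14.1%) in at least 24. These counts describe detection, which also depends on depth and on transcript length, and they give no order of abundance among the genes.

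**Figure D1:**
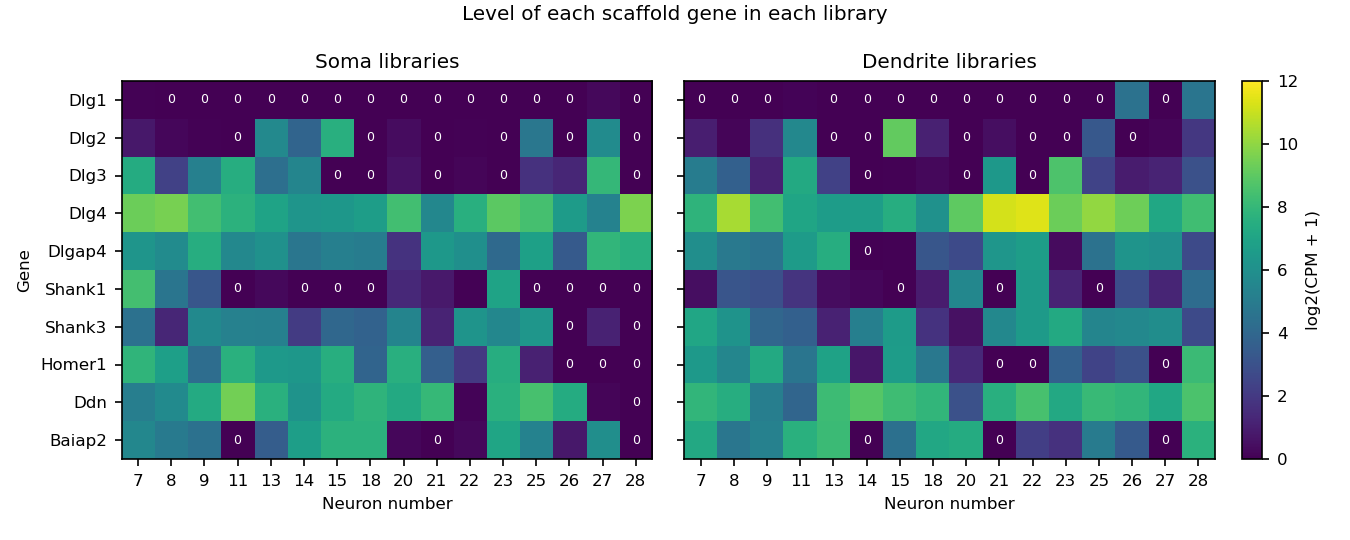
Level of each scaffold gene, as log2(CPM + 1) in colour, in the soma libraries (left) and dendrite libraries (right) of the 16 numbered neurons; a 0 marks a library with no count. Colours compare libraries within a row, not genes with each other, and Dlg4 is the row with signal in all 32 libraries while Dlg1 has signal of 10 or more counts in 2.

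A library held 10 or more counts of 6.19 ± 1.94 of the 10 genes in soma and of 6.25 ± 1.81 in dendrites (mean ± SD, n = 16 each). The paired difference was 0.0625 ± 2.46 genes, with more genes in the dendrites of 6 neurons, more in the soma of 7 and equal numbers in 3. At an equal depth of 1071293 counts per library and a minimum of 5 counts, the means were 5.60 ± 1.99 in soma and 5.87 ± 1.88 in dendrites (n = 15, neuron 25 being too shallow). At either depth the means differed by less than the spread between neurons.

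Individual cells held quite different sets. The soma of neuron 28 had 10 or more counts of only 2 of the genes, Dlg4 and Dlgap4, in 7933999 gene counts, while the dendrites of that neuron had 7 of the genes in 1433473. In neuron 14 the order was the other way round, with 8 genes in the soma and 3 in the dendrites, Dlg4, Shank3 and Ddn. The soma of neuron 7 and the dendrites of neurons 9 and 11 had the most, 9 of 10 each. Within a neuron, 4.88 ± 2.06 of the genes were found in both compartments, 1.31 ± 1.35 in the soma alone and 1.38 ± 1.63 in the dendrites alone (n = 16). The same shares were not counted over all genes, so these values describe the libraries and show no trait of the scaffold genes. In neuron 8 the same 8 genes were found in soma and dendrites and none in 1 compartment alone.

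**Figure D2:**
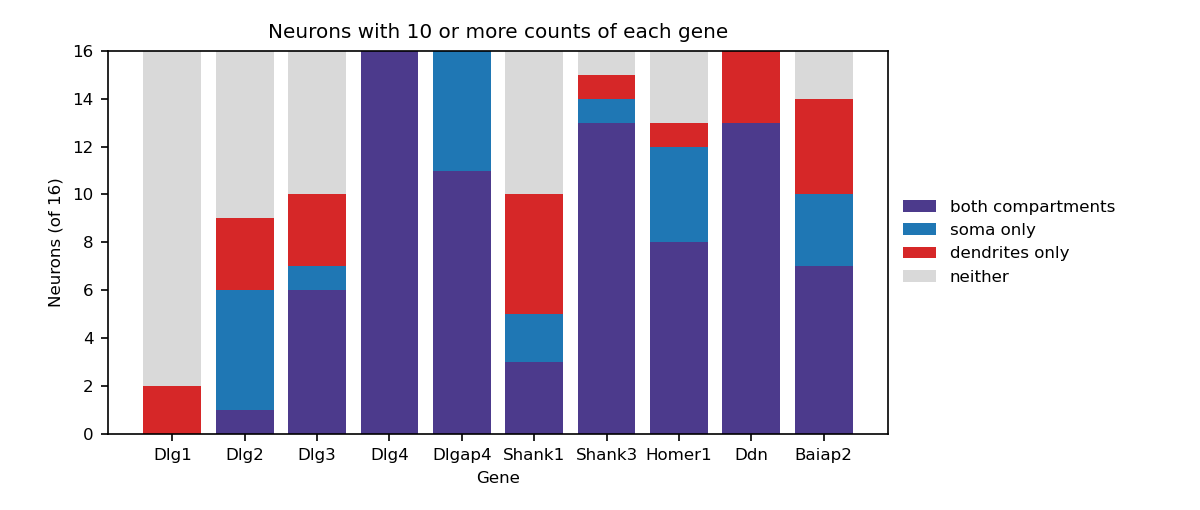
Number of neurons (of 16) in which each gene had 10 or more counts in both compartments, in the soma only, in the dendrites only or in neither. Dlg4 fills the bar with neurons positive in both compartments, Dlgap4 has 5 neurons positive in the soma only and 0 in the dendrites only, and Ddn has 0 in the soma only and 3 in the dendrites only.

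Dlg4 encodes PSD-95, the most studied of the membrane-associated guanylate kinases that anchor NMDA and AMPA receptor complexes. In soma libraries its level ran from 39.1 CPM, in neuron 27, to 803 CPM, in neuron 28, with a median of 200. In dendrite libraries it ran from 66.5 CPM, in neuron 18, to 2732 CPM, in neuron 22, with a median of 325. The highest dendrite values, in neurons 22, 21, 8 and 25 (2732, 2402, 1395 and 1078 CPM), all lay above the highest soma value, but the other 12 dendrite libraries lay within the range of the soma libraries. Soma libraries averaged 291 ± 255 CPM and dendrite libraries 688 ± 826 CPM (SD, n = 16). The level was higher in the dendrites of 11 of 16 neurons.

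The edgeR quasi-likelihood fit over all genes, with the neuron as a block, gave Dlg4 a log2 fold change of 0.93 ± 0.58 (SE), dendrites over soma, with an unadjusted p of 0.123 and an adjusted p of 0.999. The mean paired difference of log2(CPM + 1) was 0.93 ± 1.92 (SD, n = 16), with an exact two-sided sign-flip permutation p of 0.068 and an adjusted p of 0.915. The difference did not pass the test. Without neuron 21 the mean paired difference was 0.61. The dendrite level of Dlg4 moved with depth. Over the 16 dendrite libraries, the level of Dlg4 and the total gene count had a Spearman correlation of -0.76, against a median of -0.01 over the 2429 genes found in at least 24 libraries, of which 0.0823% had a lower value. Over the 16 soma libraries the correlation was -0.38. Between the paired difference of Dlg4 and the difference in log2 depth it was -0.32, which lay within the central 90% of those genes (-0.49 to 0.44). These correlations describe the libraries and share the total count on both axes.

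The 8 shallowest dendrite libraries, with 229149 to 7992858 gene counts, had a median of 641 CPM of Dlg4, and the 8 deepest, with 9692220 to 24439768, a median of 137 CPM. The shallowest were those of neurons 7, 20, 21, 22, 23, 25, 26 and 28. The deepest were those of neurons 8, 9, 11, 13, 14, 15, 18 and 27. Depth thus went largely with neuron number, and the 2 cannot be told apart here. In the 10 neurons with at least 5000000 counts in both libraries, a subset chosen after the data were seen, the paired difference of Dlg4 was 0.15 ± 0.99 (SD, n = 10), higher in the dendrites of 6 of 10 (exact sign-flip permutation p = 0.641, adjusted p 0.997, two-sided). Of the other 6 neurons, neurons 21, 22 and 26 had the largest differences, 5.70, 3.84 and 2.79, and neuron 28 went the other way, with -1.32.

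The other Dlg genes were sparse. Dlg1 encodes SAP97, a relative of PSD-95 that takes part in AMPA receptor traffic. It had at most 3 counts in any soma library and 0 in 14 of them. In dendrites it had 25 counts (21.6 CPM) in neuron 26 and 35 counts (24.4 CPM) in neuron 28, and at most 2 counts in the other 14 libraries. Both libraries in which it was found were shallow, with 1155585 and 1433473 gene counts.

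Dlg2, which encodes PSD-93, had 10 or more counts in 6 soma and 4 dendrite libraries. Its soma values ran from 0 to 189 CPM with a median of 0.105, and its dendrite values from 0 to 546 CPM with a median of 0.238. Neuron 15 held the highest value on both sides, 189 CPM in the soma and 546 CPM in the dendrites, and was the only neuron with 10 or more counts in both. That dendrite library alone gave 89.6% of the summed dendrite CPM of Dlg2, and the remaining positive somata (neurons 7, 13, 14, 25 and 27) and dendrites (neurons 9, 11 and 18) carried different numbers. If the labels of neurons 7 and 9 were exchanged, which was not tested, the soma of 7 and the dendrites of 9 would be of 1 cell. Both held little Dlg2, 11 counts (0.733 CPM) in the soma of 7 and 34 counts (2.18 CPM) in the dendrites of 9. Neither Dlg1 nor Dlg2 had enough counts to pass the filter of the fit.

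Dlg3 encodes SAP102, the relative that is prominent in young neurons and binds NMDA receptors. Its level ran from 0 to 255 CPM in soma (median 1.86) and from 0 to 402 CPM in dendrites (median 2.64). Neuron 11 was high on both sides, with 177 CPM in the soma and 153 CPM in the dendrites. In neuron 23 the soma had 0 counts and the dendrites 402 CPM, whereas in neuron 27 the soma had 255 CPM and the dendrites 1.27 CPM. The log2 fold change was -0.23 ± 3.00 (SE; edgeR adjusted p 0.999), and its sign changed when single neurons were left out. The edgeR SE of Dlg3 is not a stable measure of precision, being 0.185 without neuron 20 and 46.6 without neuron 22. DESeq2 and limma-voom gave Dlg3 SEs of 1.04 and 1.19.

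Dlgap4 encodes a SAPAP protein, one of the adaptors between PSD-95 and the SHANK proteins. It was found in 16 of 16 soma libraries, from 2.43 CPM in neuron 20 to 234 CPM in neuron 27, with a median of 58.6. In dendrites it ran from 0 to 180 CPM, the highest being in neuron 13, with a median of 25.3. Dendrite libraries of neurons 14, 15, 23, 25 and 28 held 0, 1, 2, 5 and 8 counts of it, while the somata of these neurons held between 97 and 1506. As levels, only those of neurons 14, 15 and 23 lay below the soma range: neuron 25, with its shallow library, had 21.8 CPM and neuron 28 had 5.58 CPM. The dendrites of neurons 11, 13, 20, 22 and 26 had more of it than their somata.

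Dlgap4 averaged 76.4 ± 68.7 CPM over the somata and 46.5 ± 50.5 CPM over the dendrites (SD, n = 16). The log2 fold change was -1.54 ± 1.22 (SE; edgeR unadjusted p 0.218, adjusted p 0.999). The mean paired difference of log2(CPM + 1) was -1.36 ± 2.45 (SD, n = 16), lower in the dendrites of 11 of 16 neurons. Its exact sign-flip permutation p was 0.0434 before and 0.915 after adjustment over 4916 genes, two-sided. Of the 4916 genes, 5.15% had an unadjusted sign-flip p under 0.05, and of the 8 scaffold genes tested Dlgap4 was the only one. In the 10 deeper neurons the difference was -1.90 ± 2.25, lower in the dendrites of 8 of 10 (exact sign-flip permutation p = 0.0312, adjusted p 0.997). After thinning to equal depth, at 5 or more counts, it was found in 14 somata and 11 dendrites of 15 neurons, never in dendrites alone (exact McNemar p = 0.25, adjusted p 1). With only 3 neurons differing, that test could not reach p under 0.05. At 20 or more counts Dlgap4 was found in the soma alone of 4 neurons and in the dendrites alone of 1. Such splits were not counted over all genes, so none is called particular to Dlgap4.

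**Figure D3:**
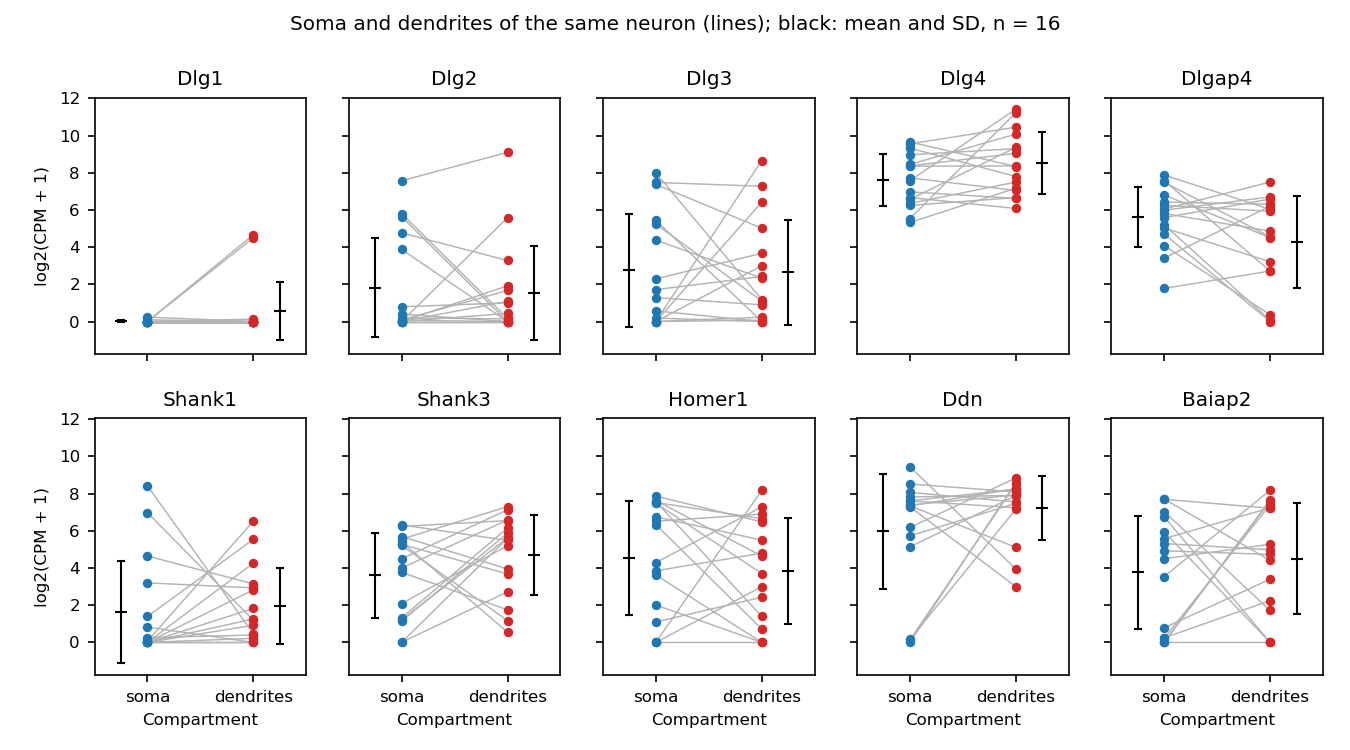
Level of each gene as log2(CPM + 1) in the soma (blue) and dendrites (red) of each neuron, joined by a line per neuron, with the mean and SD over 16 neurons in black. The soma and dendrite points overlap in every panel; the dendrite point of Dlg4 is the higher one in 11 of 16 neurons and that of Dlgap4 in 5 of 16.

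The SHANK genes encode the large scaffolds of the deeper layer, which bind SAPAP and HOMER proteins. Shank3 was found with 10 or more counts in 14 soma and 14 dendrite libraries, and in 13 neurons on both sides. Its soma values ran from 0 CPM (neurons 26 and 28) to 78.6 CPM (neuron 25), with a median of 18.3. Its dendrite values ran from 0.465 CPM (neuron 20) to 156 CPM (neuron 23), with a median of 45.6. The dendrites were higher in 10 of 16 neurons, although 12 of the 16 dendrite values fell within the soma range. The values of a neuron's 2 compartments were hardly related, with a Spearman correlation of 0.03 over 16 neurons, and 6 neurons differed by more than 10-fold in 1 direction or the other on the log2(CPM + 1) scale. A different measure, taken across all tested genes within each neuron, gave centred soma and dendrite profiles a mean Spearman correlation of 0.062. It is no background for the value of 0.03. Neither Shank3 measure was taken gene by gene over all genes, so neither is called particular to Shank3.

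For Shank3 the log2 fold change was 1.68 ± 1.52 (SE; edgeR unadjusted p 0.280, adjusted p 0.999), and the paired difference was 1.10 ± 3.28 (SD, n = 16; exact sign-flip permutation p = 0.196, adjusted p 0.941). Neither passed the test. In the 10 deeper neurons the paired difference was 1.02 ± 3.12, higher in the dendrites of 6 of 10.

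Shank1 was found in 5 soma and 8 dendrite libraries, and in both compartments of 3 neurons (8, 9 and 20). Its soma values were 340 CPM in neuron 7, 125 CPM in neuron 23, 24 CPM in neuron 8 and 8.18 CPM in neuron 9, and at most 1.62 CPM in the other 12. The somata of neurons 7 and 23 thus gave 93.0% of the summed soma CPM, while the dendrites of the same numbers had 3 and 9 counts. If the labels of neurons 7 and 9 were exchanged, which was not tested, the soma of 7 would pair with the dendrites of 9. Those held 103 counts of Shank1 (6.60 CPM). In dendrites the highest values were 90.5 CPM in neuron 22 and 45.5 CPM in neuron 20, with a median of 1.34 CPM. A few somata were high, and more dendrite libraries held a low level.

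For this gene the methods parted. The blocked edgeR fit gave Shank1 a log2 fold change of 3.31 ± 2.03 (SE; unadjusted p 0.116, adjusted p 0.999), although the mean CPM was lower in dendrites. The paired difference was 0.36 ± 3.54 (SD, n = 16), higher in the dendrites of 9 neurons (exact sign-flip permutation p = 0.696, adjusted p 0.9904). In the 10 deeper neurons it was -1.12 ± 3.20. DESeq2's Wald test gave 4.75 ± 1.16 (SE) with an adjusted p of 0.00198. That test called 8.2% of the 4916 genes at an adjusted p under 0.05, and Shank1 was the only one of the 8 scaffold genes among them. Without the block, the edgeR fold change was -0.32. The direction for Shank1 depended on the method.

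Homer1 encodes an adaptor that joins SHANK to group I metabotropic receptors, and its short form, made after activity, loosens that link; the counts do not separate the forms. It was found in 12 soma and 9 dendrite libraries. Soma values ran from 0 to 231 CPM, with a median of 49.1, and were at most 1.14 CPM in neurons 25, 26, 27 and 28. Dendrite values ran from 0 to 286 CPM, with a median of 18.0. The highest of them was in neuron 28, whose soma had 0 counts, whereas the soma of neuron 20 had 189 CPM and its dendrites 1.63. The log2 fold change of Homer1 was -1.21 ± 1.53 (SE; edgeR adjusted p 0.999), and dendrites were higher in 6 of 16 neurons. That fold change was -0.80 without neuron 14 and -0.80 without neuron 21.

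Ddn encodes dendrin, a protein of dendrites and spines whose mRNA is a textbook example of dendritic localization. It had 10 or more counts in all 16 dendrite libraries and in 13 soma libraries. Dendrite values ran from 6.97 CPM, in neuron 20, to 456 CPM, in neuron 14, with a median of 236. Soma values ran from 0 to 695 CPM, the highest being in neuron 11, with a median of 161. In neurons 22, 27 and 28 the soma held 2, 2 and 0 counts and the dendrites 366, 142 and 388 CPM. Apart from these 3 somata the groups overlapped over most of their range.

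The level of Ddn averaged 171 ± 174 CPM over the somata and 219 ± 131 CPM over the dendrites (SD, n = 16). Its log2 fold change was 0.87 ± 1.15 (SE; edgeR unadjusted p 0.458, adjusted p 0.999). The paired difference was 1.247 ± 4.02 (SD, n = 16), higher in the dendrites of 10 neurons, and did not pass the test (exact sign-flip permutation p = 0.235, adjusted p 0.947). The fold change of Ddn was 0.50 without neuron 27, 0.57 without neuron 22 and 0.57 without neuron 28. In 6 neurons the order was the reverse, by the most in neurons 11 and 20, whose dendrites had 14.3 against 695 CPM and 6.97 against 155 CPM in the soma. Its dendrite and soma levels had a Spearman correlation of -0.25 over 16 neurons, which was not set beside that of all genes.

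Baiap2 encodes IRSp53, which bends membranes and links the scaffold to actin regulators. It was found in 10 soma and 11 dendrite libraries, in 7 neurons on both sides, in the soma alone of 3 and in the dendrites alone of 4. Values ran from 0 to 207 CPM in soma (median 25.4) and from 0 to 288 CPM in dendrites (median 28). In neuron 11 the soma had 0 counts and the dendrites 4109, and in neuron 14 the soma had 2424 and the dendrites 0. More than 10-fold differences on the log2(CPM + 1) scale were seen in 7 of 16 neurons, the most of the 10 genes. How common such differences were over all genes was not counted. The log2 fold change of Baiap2 was 1.12 ± 1.91 (SE; edgeR adjusted p 0.999), and dendrites were higher in 8 neurons. Leaving out 1 neuron at a time gave Baiap2 fold changes between 0.63, without neuron 11, and 1.61. Neurons 11, 13, 20, 22, 26 and 28 each lowered it by more than 1.5 times when left out. In the 10 deeper neurons its paired difference was -0.73 ± 4.69.

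**Figure D4:**
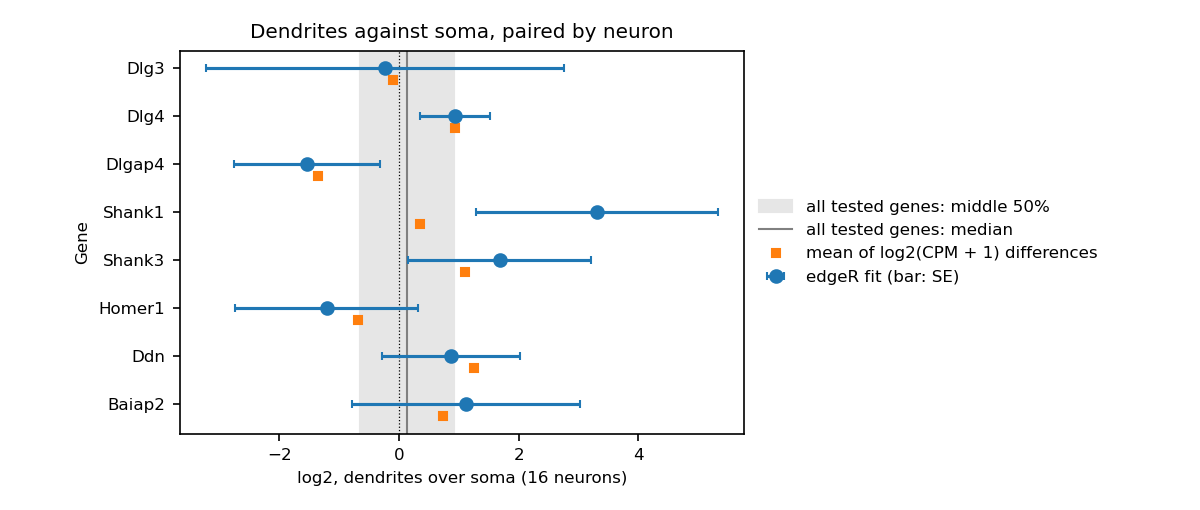
Dendrites against soma for the 8 scaffold genes that passed the filter, as the edgeR log2 fold change with its SE (circles) and the mean paired difference of log2(CPM + 1) (squares); the grey band spans the middle 50% of the fold changes of all tested genes and the grey line is their median. Values run from -1.54 for Dlgap4 to 3.31 for Shank1, where circle and square lie far apart.

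Taking the 8 tested genes as a list, 5 had a positive and 3 a negative log2 fold change, with a median of 0.90. Over all 4916 tested genes, 2696 were positive and 2220 negative, with a median of 0.13. At an adjusted p under 0.05 edgeR called 0 of the 8 genes and 0 of the 4916 (0% called). At an unadjusted p under 0.05 it had 0 of the 8, where 129 of 4916 (2.62%) passed. Detection at equal depth gave 0 of the 10 genes an unadjusted exact McNemar p under 0.05, against 0.488% of 10032 genes. For Dlg1, Dlg2, Dlg4, Dlgap4, Homer1 and Ddn too few neurons differed between compartments for that test to reach p under 0.05. For these genes it could not show a difference. In the fit without the pairing of soma and dendrites, the median of the 8 was 0.02. The middle 50% of all fold changes lay between -0.65 and 0.92, and of the 8 values, each taken with 1 SE on either side, only that of Shank1 lay wholly outside it.

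Other genes of the postsynaptic density came from a list made by role. Of 39 found by symbol, 12 had 10 or more counts in at least 24 libraries and 8 in 3 or fewer. Of the 39, 18 passed the filter, 12 with a positive and 6 with a negative fold change (median 0.28), and 0 were called. Of the relatives of the scaffold genes, Dlgap3 (SAPAP3) was found in 11 soma and 9 dendrite libraries and had a log2 fold change of -0.92 ± 1.68 (SE; edgeR adjusted p 0.999). Dlgap1 had 10 or more counts in 14 of 32 libraries, with up to 61.5 CPM in soma and 144 CPM in dendrites. Homer2 had them in 9 libraries, Dlgap2 in 3 and Shank2 in 1. Homer3 was found in 5 soma and 0 dendrite libraries, with up to 26.1 CPM. Within the families, the members found in the most libraries were Dlg4, Dlgap4, Shank3 and Homer1, all of them among the scaffold genes chosen with earlier results known.

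In the same list, Camk2b, a subunit of the calcium kinase that gathers at the postsynaptic density, was found in every library, with 1107 ± 588 CPM over the somata and 1123 ± 737 CPM over the dendrites (SD, n = 16). Dynll1, a dynein light chain bound by the SAPAP proteins, was found in every library too, with 939 ± 576 and 849 ± 517 CPM.

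Of 17 receptor and adhesion genes, also listed by role, 4 passed the filter, 1 with a positive and 3 with a negative fold change (median -0.87), and 0 were called. Gria2, an AMPA receptor subunit, was found in 16 soma and 15 dendrite libraries, with 1077 ± 1157 and 582 ± 525 CPM and a log2 fold change of -1.06 ± 0.82 (SE). Grin1, the obligatory NMDA receptor subunit, was found in 15 and 14 libraries, with a log2 fold change of -0.68 ± 1.26 (SE). Gria1 was found in 8 and 5 libraries. Grin2b had 10 or more counts in 1 library and Grm5, a receptor bound by HOMER, in 3. Of 9 genes for enzymes that add or remove palmitate, the lipid that holds PSD-95 at the membrane, 5 passed the filter, 3 positive and 2 negative (median 2.01), and 0 were called.

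Levels of the 4 scaffold genes found in at least 24 libraries were compared with each other across libraries. The Spearman correlation of log2(CPM + 1) was 0.41 between Dlg4 and Shank3, 0.28 between Shank3 and Ddn, 0.04 between Dlg4 and Dlgap4, and -0.17 between Dlgap4 and Ddn. The genes whose pattern was most like that of Dlg4 were Pcdhgb7, a clustered protocadherin (0.71), Ppp3r1, the regulatory subunit of calcineurin (0.62), and Tef, a transcription factor (0.60), among 2429 genes found in at least 24 libraries. Those nearest to Shank3 were Sez6l2 (0.61), Arhgap35 (0.60) and Map3k10 (0.59), and Dlg4 was the nearest scaffold gene, at rank 101. Those nearest to Dlgap4 were Zfp638 (0.62), Selk (0.62) and Gnb2 (0.59), and those nearest to Ddn were Cfl1, an actin-severing protein (0.62), Anapc5 (0.62) and Gal3st3 (0.62). The libraries share neurons in pairs and differ in depth, so these values describe likeness only.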

How the data were processed

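The authors deposited whole-number counts per gene and library (17216 genes and 92 spike-in transcripts, left out of all totals and tests). The build was rn6, per the submitters' processing notes. Which aligner, annotation, strand setting and multi-read rule were used is not given in the sources used here. Groups and neuron numbers were read from sample titles. Per the series' design text, soma and dendrites of 1 cell form a pair, so the neuron was a block; as a check, centred profiles had a mean Spearman correlation of 0.062 within neurons and -0.00318 between them. Genes passed filterByExpr (minimum count 10; 4916 genes), and were tested with edgeR 4.0.16 (TMM, robust quasi-likelihood) in R 4.3.3, with Benjamini-Hochberg adjustment over all of them and a threshold of 0.05. Each edgeR SE is the absolute log2 fold change divided by √F, an approximation that is unstable for fold changes near 0, as for Dlg3. Paired log2(CPM + 1) differences, in which folds of low genes are understated, had exact sign-flip tests (smallest p 3.05e-05). Detection was compared by exact McNemar tests after thinning to 1071293 counts. Alternatives included DESeq2 1.42.0 and limma 3.58.1. Scripts were tested on simulated data.

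All 10 genes were named, with 12 relatives and receptors, of which 1 is not reported here; other lists were given as counts with up to 2 examples of the highest mean CPM. Likeness was the Spearman correlation over 32 libraries for genes with 10 counts in at least 24. The genes, lists and tests were chosen with earlier results of these data known.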

Additional observations from a re-analysis of the deposited data

How the results depend on the processing

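Depth limits these results, since a gene with 0 counts may still have up to 13.1 CPM in the shallowest dendrite library, and 3 rounds of amplification of a single cell's RNA stand between transcripts and counts. The number of genes called was 0 by edgeR in the main design, 1 with no filter on low counts (Adam1a, named after its values were seen; log2 fold change 4.14, adjusted p 0.0112) and 403 with DESeq2's Wald test, and it was 0 in the other 8 settings and in all 16 fits without 1 neuron. At an unadjusted p under 0.05, edgeR had 129 genes, limma-voom 226 and DESeq2 1014. Without the replicate block the median of the scaffold genes was 0.022 in place of 0.90 and the fold change of Shank1 was -0.32 in place of 3.31, while 0 genes were called with or without it. Fits without 1 neuron called 0 genes and kept the sign of every tested scaffold gene but Dlg3, whose fold change lay between -0.69 and 0.23; 1 neuron also moved the fold changes of Homer1 (-1.68 to -0.80), Ddn (0.50 to 1.18) and Baiap2 (0.63 to 1.61) and the paired differences of Dlg4 (0.61 to 1.09), Homer1 (-1.27 to -0.31), Ddn (0.76 to 1.70) and Baiap2 (0.28 to 1.24) by over 1.5 times; the Dlg3 fold change was 0.32 without neurons 7, 8 and 9 and 0.040 with limma-voom. The paired difference of Dlg3 (-0.11) was 0.12 with log2(CPM + 0.1), and between -0.69 and 0.34 without 1 neuron. That of Shank1 (0.36) was -0.0088 with log2(CPM + 5), and between -0.0496 and 0.91 without 1 neuron. In the 10 neurons with at least 5000000 counts in both libraries, an alternative added after the data were seen, it was -1.12 for Shank1 and -0.73 for Baiap2 (0.74 in all 16). The detection difference of Dlg2 was -2 libraries at 5 counts and 1 at 1 count. Shank1 failed the filter without neuron 9 and without neurons 7, 8 and 9, and the stricter filter left Dlg4, Shank3 and Ddn. The cause of these changes was not tested.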
